A study of Mus musculus with 45 samples.

Results

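Adipocyte RNA of 45 mice was measured for 7 genes that take up, reduce, store and export iron: the transferrin receptors Tfrc and Tfr2, the endosomal transporter Slc11a2, the ferrireductases Steap3 and Steap4, the ferritin heavy chain Fth1 and the exporter Slc40a1. All 18 probe sets whose only symbol in the array annotation is that of a member were taken, of 45037 probe sets in all, so that 7 of the 18193 named genes are described. Tfrc and Steap3 have 3 probe sets each, Slc11a2 has 4, and Tfr2, Steap4, Fth1 and Slc40a1 have 2 each. The genes were selected on earlier results of these data, foremost the difference between D mice on Western diet and on chow for 16 weeks. The values of that comparison are therefore given as a description, with no p-value for a member.

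Each of the 45 female C57BL/6 mice gave 1 array of adipocytes isolated from parametrial and periovarian fat. D mice (26 mice) have the genotype IR+/- IRS1+/- ApoE-/-, so that they carry 1 intact copy of the insulin receptor and of insulin receptor substrate 1, and E mice (19 mice) are ApoE-/- only. The lack of ApoE, the apolipoprotein that clears lipoprotein remnants, is shared by every group, and no mouse with ApoE was measured. Diets started at 8 weeks of age. D mice were fed chow for 8 weeks (DC8, n = 7) or 16 weeks (DC16, n = 5), or Western diet for 8 weeks (DW8, n = 5) or 16 weeks (DW16, n = 9). E mice were fed Western diet for 8 weeks (EW8, n = 6) or 16 weeks (EW16, n = 8), or chow for 16 weeks (EC16, n = 5). No group of E mice on chow for 8 weeks was analysed here. The number of mice per group limits the precision.

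Cells take up iron mainly as transferrin, which binds transferrin receptor 1 (Tfrc) and is carried into endosomes, where a ferrireductase such as Steap3 reduces the released iron and Slc11a2 (DMT1) moves it into the cytosol. Surplus iron is stored in ferritin, whose heavy chain Fth1 oxidizes it, or leaves through ferroportin (Slc40a1), the iron exporter. Tfr2, a second receptor for transferrin, is best known as an iron sensor of hepatocytes and erythroid precursors, and Steap4 is a metalloreductase that is abundant in adipose tissue.

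Values are log2 RMA values, and a difference between groups is given on the same log2 scale with its standard error (SE). A probe set was called when its Benjamini-Hochberg adjusted p from limma, over all 45037 probe sets, was under 0.01. Probe sets differ in how they bind, so that a higher value on one probe set than on another does not show more RNA. Percentiles of level and sums over markers are therefore only a rough guide. Of the 45 arrays, 10 span a narrower range of values than the rest: on those of DW16 mice 1 to 7 and EW16 mice 1 to 3 the standard deviation over probe sets was 2.11 to 2.35, against 2.39 to 2.53 on the other 35. These 10 narrow-range arrays were set apart after their values had been seen, and nothing in the labels names a batch for them. Strongly expressed probe sets read lower on them: the median difference of the top decile of probe sets by level was -0.44 for DW16 against DC16 and -0.28 for EW16 against EC16, and -0.04 and -0.03 after a further quantile normalization of all arrays. The genotype was checked on its targets, none of them called. D minus E differences on Western diet for 8 weeks, Western diet for 16 weeks and chow for 16 weeks were -0.56, -1.03 and -0.88 for the strongest probe set of the insulin receptor gene Insr, and -0.16 (SE 0.25), -0.69 (SE 0.23) and -0.18 (SE 0.18) for the substrate gene Irs1. Every group lacks ApoE, so that this part of the genotype cannot be compared between groups.

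The array reads RNA of all cells in the preparation, so that fewer cells of a type and less RNA per cell cannot be told apart. Of 10 adipocyte markers listed, the 8 measured were in the top decile of probe sets by level, with Adipoq, Fabp4 and Lpl close to the top. Their summed level (log2) was 16.7 to 16.9 in DC16 and 15.8 to 16.9 in DW16 mice, and 16.8 to 17.0 in EC16 and 15.6 to 16.9 in EW16 mice. Of the other cell types, the 6 endothelial markers summed to 12.0 to 12.5 in DC16 and 10.7 to 12.4 in DW16 mice, and the 10 macrophage markers to 13.1 to 14.2 and 12.6 to 13.9. The 6 lymphocyte markers summed to 11.8 to 12.6 in DC16 and 9.32 to 10.9 in DW16 mice, which did not overlap, with 1 of them called higher and 1 lower, and to 11.4 to 13.1 in EC16 and 9.37 to 12.6 in EW16 mice. This sum mostly reads Ighm, with a mean of 11.1 over the 45 mice, against means of 3.87 to 6.37 for the other lymphocyte markers. The median DW16 minus DC16 difference of the 6 was -0.06. The 6 markers of fibroblasts and stroma summed to 14.9 to 15.2 in DC16, 13.9 to 15.1 in DW16, 15.03 to 15.57 in EC16 and 13.8 to 15.1 in EW16 mice. The part of these cells in the results was not tested.

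The promoters of the 3 members with a call in a tested comparison, Tfr2, Steap3 and Steap4, are shown so that the letters next to each gene can be seen (Slc11a2, also called, had no entry in the promoter table). They are the bases before the annotated gene in RefSeq (GRCm38.p6), 5′ to 3′ on the strand of the gene, and capitals mark matches on either strand to ACGTG (the core of hypoxia response elements), TTGCNNAA (a C/EBP motif), TATAA (the TATA box) or GGGCGG (the GC box). The windows are chr5:137569590-137569821 on the plus strand (232 bases) for Tfr2, chr1:120271082-120271330 on the minus strand (249 bases) for Steap3, and chr5:7960222-7960471 on the plus strand (250 bases) for Steap4, which overlaps the predicted gene Gm30835. The promoter table held 3 windows for Tfr2, 4 for Steap3 and 1 for Steap4. Only the most upstream window of each gene was read.
Tfr2: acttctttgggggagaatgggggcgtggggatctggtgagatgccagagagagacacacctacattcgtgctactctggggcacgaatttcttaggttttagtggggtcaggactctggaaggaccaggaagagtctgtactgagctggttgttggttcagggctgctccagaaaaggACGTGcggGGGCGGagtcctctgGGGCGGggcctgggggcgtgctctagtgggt
Steap3: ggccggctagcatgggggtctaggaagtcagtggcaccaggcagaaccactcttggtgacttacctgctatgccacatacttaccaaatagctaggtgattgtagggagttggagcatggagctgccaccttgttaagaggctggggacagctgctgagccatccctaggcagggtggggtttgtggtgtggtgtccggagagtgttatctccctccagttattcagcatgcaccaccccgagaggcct
Steap4: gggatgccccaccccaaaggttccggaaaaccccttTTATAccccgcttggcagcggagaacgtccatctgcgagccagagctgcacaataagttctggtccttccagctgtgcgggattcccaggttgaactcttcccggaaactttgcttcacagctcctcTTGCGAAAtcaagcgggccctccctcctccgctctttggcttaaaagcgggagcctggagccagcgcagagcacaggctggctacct
The Tfr2 window held 1 match to ACGTG and 2 to GGGCGG, the Steap4 window held 1 match each to TTGCNNAA and TATAA, and the Steap3 window held none of the 4 motifs. Of 32851 windows of 250 bases in the same table, 16.6% held ACGTG, 9.56% TTGCNNAA, 22.8% TATAA and 32.7% GGGCGG. A match describes letters only, and none of the matches overlapped another.

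Among the members Tfr2 had the largest difference in the 9 comparisons. It was higher in adipocytes after 16 weeks of Western diet in both genotypes, and the call in E mice was made on both of its probe sets. On 1425381_a_at the EC16 mice had 7.23, 7.35, 7.19, 7.20 and 6.84, and the 8 EW16 mice ran from 7.53 over a median of 7.75 to 8.14. On 1459994_x_at the EC16 mice had 5.60, 5.79, 5.67, 5.40 and 4.34, and the EW16 mice ran from 6.37 over a median of 7.70 to 8.70. Every EW16 mouse lay above every EC16 mouse on both probe sets. The difference was 0.64 (SE 0.13, limma adjusted p = 0.00821) on 1425381_a_at, a 1.56-fold rise, and 2.26 (SE 0.37, limma adjusted p = 0.00369) on 1459994_x_at, a 4.80-fold rise. These were the 2 of 18 member probe sets called in this comparison, beside 2.66% of all probe sets, and 3 of 18 had groups that did not overlap, beside 4.75%.

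The rise of Tfr2 in E mice was also called on both probe sets after quantile normalization (0.80 and 2.32), and without the 3 narrow-range EW16 arrays (0.75 and 2.46). On 1425381_a_at it was not called with arrays centred on their median (0.60) or with only the 3 narrow-range arrays kept in EW16 (0.46). Over the alternative settings the adjusted p ran from 0.000389 to 0.121 for 1425381_a_at and from 5.26e-05 to 0.0767 for 1459994_x_at, both highest with the replicate number as a block. With 1 mouse left out at a time, the call on 1425381_a_at held in 3 of 13 fits and that on 1459994_x_at in 9 of 13, while the difference stayed between 0.56 and 0.69 and between 2.01 and 2.44. The summed level of the 4 measured erythroid markers was 7.73 to 8.14 in EC16 and 7.58 to 9.73 in EW16 mice. By level, Hba-a1 lay at the 19.6th percentile, Epb42 at the 34.3rd, Slc4a1 at the 35.3rd and Alas2 at the 72.4th. The 3 measured hepatocyte markers summed to 8.36 to 8.43 in EC16 and 8.18 to 9.20 in EW16 mice. The 7 mesothelial markers summed to 10.6 to 11.6 in EC16 and 9.43 to 10.6 in EW16 mice. The part of these cells in the Tfr2 values was not tested.

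**Figure D1:**
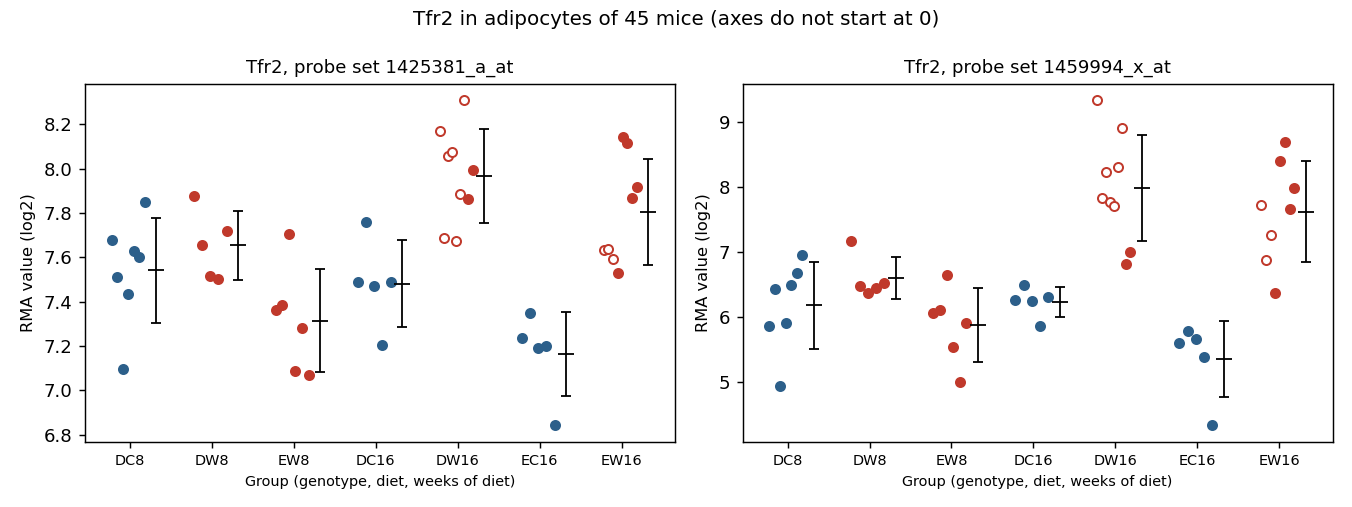
RMA values (log2, vertical axis) of the 2 Tfr2 probe sets in each of the 45 mice by group (horizontal axis), with chow in blue, Western diet in red and narrow-range arrays as open circles. Bars are the mean ± SD. All 8 EW16 mice sit above all 5 EC16 mice in both panels, while on 1459994_x_at the DW16 mice 8 and 9, at 6.82 and 7.01, sit below the 7 narrow-range DW16 mice.

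In D mice on chow for 16 weeks, Tfr2 1425381_a_at read 7.49, 7.76, 7.47, 7.20 and 7.49, and in DW16 mice from 7.68 over a median of 7.99 to 8.31. On 1459994_x_at the DC16 mice had 6.26, 6.50, 6.26, 5.86 and 6.31, and the DW16 mice ran from 6.82 over a median of 7.83 to 9.34. The groups did not overlap on 1459994_x_at and did on 1425381_a_at, where only DC16 mouse 2 reached into the range of DW16. The differences were 0.49 (SE 0.12) and 1.75 (SE 0.34). Without the narrow-range arrays DW16 mice 8 and 9 remained, and the difference on 1459994_x_at was 0.67 (SE 0.17). The diet difference of D mice minus that of E mice, which holds the DW16 minus DC16 difference the genes were selected on, was -0.15 (SE 0.17, limma adjusted p = 0.883) and -0.51 (SE 0.52, limma adjusted p = 0.869) on the respective probe sets.

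At 8 weeks Tfr2 1459994_x_at was 7.17, 6.49, 6.38, 6.45 and 6.53 in DW8 mice and 4.94 to 6.95, with a median of 6.44, in DC8 mice, and the groups overlapped. The differences at 8 weeks were 0.42 (SE 0.28) and, on 1425381_a_at, 0.11 (SE 0.11), neither called. In EW8 mice 1459994_x_at ran from 5.00 over a median of 5.99 to 6.66. From EW8 to EW16 it rose by 1.74 (SE 0.34, limma adjusted p = 0.00931), a 3.34-fold rise with groups that overlapped through EW16 mouse 4. That call held in 1 of 14 fits with a mouse left out, and the adjusted p ran from 0.000402 to 0.0888 over the alternative settings. From DW8 to DW16 the difference was 1.39 (SE 0.35, limma adjusted p = 0.0137), not called. Without the narrow-range arrays it was 0.31 on the 2 remaining DW16 mice. Over the alternative settings its adjusted p ran from 0.000147 to 0.542, highest without those arrays.

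Between genotypes Tfr2 was not called, but its values leaned the same way at both times. On chow for 16 weeks every DC16 mouse lay above every EC16 mouse on 1459994_x_at, with a difference of 0.88 (SE 0.24, limma adjusted p = 0.764). It was the only 1 of 18 member probe sets with groups that did not overlap there, beside 1.26% of all probe sets. On Western diet the D minus E differences of 1459994_x_at were 0.72 (SE 0.25, limma adjusted p = 0.985) at 8 weeks and 0.37 (SE 0.36, limma adjusted p = 0.649) at 16 weeks. The 2 Tfr2 probe sets followed each other over the 45 mice with a Spearman rho of 0.91, and of 0.93 over the 35 mice without narrow-range arrays. Both probe sets ranked EC16 and EW8 as the lowest groups and EW16 and DW16 as the highest, and on 1459994_x_at only the steps from DC16 to DW8 and from DW8 to EW16 were wider than the larger SD of the groups on either side. By its design name 1459994_x_at can bind transcripts of other genes.

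Tfrc, the main receptor for transferrin, was not called in any of the 9 comparisons. Its strongest probe set, 1452661_at, read 10.46, 11.02, 11.13, 10.82 and 10.61 in DC16 mice and 9.71 to 10.68, with a median of 10.28, in DW16 mice. In EC16 mice it read 10.52, 10.81, 10.78, 10.86 and 10.52, and in EW16 mice 9.75 to 10.40, with a median of 10.19. All EW16 mice lay below all EC16 mice, while the D groups overlapped. The differences were -0.62 (SE 0.17) in D mice and -0.58 (SE 0.12, limma adjusted p = 0.0115) in E mice, and after quantile normalization -0.20 and -0.34.

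Without the 3 narrow-range EW16 arrays the Tfrc difference in E mice was -0.44 (SE 0.09) with an adjusted p of 0.00808, within a range of 0.00137 to 0.0774 over the alternative settings. At 8 weeks 1452661_at was 10.61, 10.19, 10.68, 10.61 and 10.46 in DW8 mice, all within or near the 10.40 to 10.82 of DC8 mice, with a difference of -0.07 (SE 0.09). EW8 mice ran from 10.35 to 11.21. The weaker probe sets 1422966_a_at and 1422967_a_at stayed between 5.19 and 6.71 and between 3.62 and 4.69, and the rho of 1422966_a_at with 1452661_at was -0.10 over 45 mice, 0.31 after quantile normalization and 0.38 over the 35 mice without narrow-range arrays. No step between neighbouring groups in the order of means exceeded the larger SD for any of the 3.

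Of the 4 probe sets of Slc11a2, which moves iron out of the endosome, 1 was called, for a fall between 8 and 16 weeks of Western diet in D mice. On 1426441_at the DW8 mice had 8.00, 8.11, 8.10, 7.94 and 7.88, and the DW16 mice ran from 6.77 over a median of 7.22 to 7.87. No DW16 mouse reached the lowest DW8 mouse, but DW16 mice 8 and 9, at 7.87 and 7.84, lay just under it. The fall was -0.74 (SE 0.16, limma adjusted p = 0.00885), a 1.66-fold decrease, with an adjusted p of 1.41e-05 to 0.554 over the alternative settings. It was -0.15 (SE 0.10) without the 7 narrow-range arrays and -0.52 after quantile normalization, neither of them called. From DW8 to DW16 the other probe sets differed by -0.35 (1417584_at), -0.56 (1452078_a_at) and 0.11 (1441709_at), none called. After quantile normalization these were -0.05, -0.21 and 0.02.

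The chow groups of Slc11a2 1426441_at gave 8.06, 8.16, 7.90, 7.13 and 7.83 in DC16, 7.79, 7.77, 7.99, 7.84 and 8.16 in EC16, and 7.86 to 8.34 in DC8 mice. In EW8 mice it ran from 7.41 to 8.55, and in EW16 mice from 6.95 over a median of 8.04 to 8.15. The 3 narrow-range EW16 arrays were the lowest of their group, at 7.36, 7.09 and 6.95, and the other 5 EW16 mice read 8.00 to 8.15. In E mice the 16-week diet difference was -0.18 (SE 0.22, limma adjusted p = 0.611). The other probe sets gave 16-week diet differences in E mice of 0.17 (1417584_at), 0.16 (1441709_at) and -0.34 (1452078_a_at), none called.

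Steap3, the endosomal ferrireductase of erythroid cells that is also made in other tissues, was the member that rose after 8 weeks of Western diet. On 1423468_at the DW8 mice had 7.59, 7.87, 7.79, 7.43 and 7.50, and the 7 DC8 mice ran from 6.82 over a median of 7.01 to 7.39. All DW8 mice lay above all DC8 mice. The difference was 0.59 (SE 0.10, limma adjusted p = 0.0073), a 1.51-fold rise, and it was the only call among the 18 member probe sets, beside 1.08% of all probe sets. It was also the only member probe set with groups that did not overlap, beside 2.83%. The other Steap3 probe sets differed by 0.29 (1430355_a_at) and 0.28 (1453498_x_at), neither called.

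The Steap3 call at 8 weeks held after quantile normalization (0.56) and when a call by SAM, a permutation-based test across all probe sets, was required as well, with separate cut-offs for each direction. It was lost when SAM with symmetric cut-offs was required, and over the alternative settings the adjusted p ran from 0.00647 to 0.233, the highest with 1 spread for all 7 groups. It held in 3 of 12 fits with a mouse left out, where the difference stayed between 0.53 and 0.65 and the adjusted p reached 0.0257.

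At 16 weeks Steap3 1423468_at was called for diet in neither genotype. DC16 mice had 6.98, 7.02, 6.83, 7.37 and 7.01, and DW16 mice ran from 6.71 over a median of 7.06 to 7.76, with mice 8 and 9 at 7.69 and 7.76 and the 7 narrow-range arrays at 7.36 or below. EC16 mice had 7.39, 7.78, 7.11, 6.93 and 6.95, and EW16 mice ran from 5.73 over a median of 6.55 to 7.62. In E mice 7 of the 8 EW16 mice lay at or below 6.96, and mouse 4 stood apart at 7.62. The diet differences were 0.14 (SE 0.17) in D mice and -0.67 (SE 0.28, limma adjusted p = 0.137) in E mice, and the difference between them was 0.81 (SE 0.33, limma adjusted p = 0.786). After quantile normalization the diet differences were 0.31 and -0.55. DW16 mice 8 and 9 averaged 7.73 and the narrow-range DW16 arrays 7.02, against 7.04 in DC16 mice. In D mice the diet difference at 16 weeks minus that at 8 weeks was -0.45 (SE 0.21, limma adjusted p = 0.157), and -0.24 after quantile normalization.

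EW8 mice had the highest mean of Steap3 1423468_at, with 7.41 to 8.20 and a median of 7.82. From EW8 to EW16 it fell by 1.26 (SE 0.25, limma adjusted p = 0.00947), a 2.40-fold decrease, with groups that overlapped through EW16 mouse 4. That fall was called in 1 of 14 fits with a mouse left out, and its adjusted p ran from 3.48e-05 to 0.0846 over the alternative settings. The 2 calls from EW8 to EW16, Steap3 1423468_at and Tfr2 1459994_x_at, were 2 of 18 beside 1.57% of all probe sets, and 0 of 18 had groups that did not overlap, beside 1.58%. Only the step from EC16 to DW8 in the order of the 7 group means of 1423468_at was wider than the larger SD.

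Steap4, the other ferrireductase, was lower in DW16 than in DW8 mice on both probe sets. On 1425829_a_at the DW8 mice had 9.44, 9.38, 9.01, 9.20 and 9.26, and the DW16 mice ran from 6.86 over a median of 7.53 to 8.48. On 1460197_a_at the DW8 mice had 13.64, 13.61, 13.53, 13.55 and 13.50, and the DW16 mice ran from 12.31 over a median of 12.90 to 13.20. No DW16 mouse reached the range of DW8 on either probe set. The falls were -1.57 (SE 0.23, limma adjusted p = 0.00208), a 2.98-fold decrease, and -0.80 (SE 0.15, limma adjusted p = 0.00494), a 1.74-fold decrease. With Slc11a2 1426441_at these were the 3 of 18 calls from DW8 to DW16, beside 5.41% of all probe sets, and the same 3 had groups that did not overlap, beside 4.16%. The DW16 mice also stand in the comparison the genes were selected on, and nothing is read from these counts.

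The fall of Steap4 1425829_a_at was -1.27 after quantile normalization and was called there, while that of 1460197_a_at was -0.40 and was not. Without the 7 narrow-range arrays the falls were -1.41 (SE 0.28) and -0.79 (SE 0.19), with adjusted p-values of 0.139 and 0.193 on 2 remaining DW16 mice. Over the alternative settings the adjusted p ran from 2.45e-05 to 0.139 and from 0.000381 to 0.255. DW16 mouse 9, not on a narrow-range array, read 7.21 and 12.36, within the range of the narrow-range DW16 arrays. DW16 mouse 8, the other one of this kind, read 8.48 and 13.20, above the narrow-range DW16 arrays, which reached 8.42 and 13.10. With a mouse left out, 1425829_a_at was called in 14 of 14 fits and 1460197_a_at in 9 of 14.

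On chow Steap4 1425829_a_at read 8.90, 8.88, 8.57, 7.28 and 8.75 in DC16, 8.82, 8.72, 9.19, 8.62 and 8.93 in EC16, and 8.78 to 9.38 in DC8 mice. DC16 mouse 4 lay below all other chow mice on both probe sets, with 12.67 on 1460197_a_at. From DC8 to DC16 the differences were -0.56 (SE 0.23, limma adjusted p = 0.517) and -0.29 (SE 0.11, limma adjusted p = 0.471). EW8 mice ran from 8.87 to 9.48 and EW16 mice from 6.73 over a median of 9.06 to 9.32, where the 3 narrow-range arrays read 7.89 or less and the other 5 mice 8.99 or more. The 16-week diet differences of 1425829_a_at and 1460197_a_at were -0.79 (SE 0.30) and -0.39 (SE 0.17) in D mice, and -0.37 (SE 0.43, limma adjusted p = 0.586) and -0.18 (SE 0.22, limma adjusted p = 0.608) in E mice.

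Fth1, the heavy chain of ferritin, was not called in any comparison. On 1448771_a_at the SD within a group was 0.03 to 0.09 outside the 16-week Western groups. All mice of the DC8, DW8, DC16, EC16 and EW8 groups lay between 13.97 and 14.23. DW16 mice ran from 12.50 over a median of 13.36 to 14.10, and EW16 mice from 12.44 over a median of 13.50 to 14.12. DW16 mice 8 and 9, at 14.07 and 14.10, and EW16 mouse 4, at 14.12, were within the range of the other groups, while the 10 narrow-range arrays and EW16 mice 5 to 8 were below it.

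The 16-week diet differences of Fth1 1448771_a_at were -0.86 (SE 0.24) in D mice and -0.69 (SE 0.21, limma adjusted p = 0.0533) in E mice. Without the narrow-range arrays they were -0.03 (SE 0.11) in D mice and -0.45 (SE 0.12) in E mice, and after quantile normalization -0.46 and -0.41. The adjusted p in E mice ran from 0.00203 to 0.153 over the alternative settings. The probe set lies at the 99.8th percentile of level, where narrow-range arrays read low and where signals close to the upper end of an array's range can be compressed, so that a small spread does not show a steady level. The other probe set, 1427021_s_at, ran from 12.61 to 13.71 over all mice, with an SD within a group of 0.07 to 0.29 and diet differences of -0.15 and -0.25 at 16 weeks that became 0.26 and 0.04 after quantile normalization, and by its design name it shares probes with similar transcripts. Its rho with 1448771_a_at was 0.34 over 45 mice and -0.13 over the 35 without narrow-range arrays.

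Slc40a1, ferroportin, was lower in DW16 than in DC16 mice. On 1417061_at the DC16 mice had 8.13, 8.03, 8.06, 7.81 and 8.11, and the DW16 mice ran from 6.45 over a median of 6.87 to 7.42. The groups did not overlap, and DW16 mice 8 and 9, at 7.42 and 6.83, lay with the other 7. The difference was -1.06 (SE 0.17), a 2.09-fold lower level, and without the narrow-range arrays -0.90 (SE 0.17). With Tfr2 1459994_x_at it made up the 2 of 18 calls in DW16 against DC16, beside 3.43% of all probe sets, and the same 2 had groups that did not overlap, beside 3.63%. The genes were chosen on this comparison, and nothing is read from these counts.

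In E mice Slc40a1 1417061_at read 8.01, 8.08, 8.07, 8.03 and 8.75 in EC16, and from 6.25 over a median of 8.06 to 8.84 in EW16 mice. EW16 mice lay on both sides of the EC16 mice, and the difference was -0.32 (SE 0.37, limma adjusted p = 0.58). The 3 narrow-range EW16 arrays averaged 7.21 and the other 5 EW16 mice 8.27, against 8.19 in EC16 mice. The diet difference of D minus that of E mice was -0.75 (SE 0.41, limma adjusted p = 0.791). Between DW16 and EW16 mice the difference was -0.91 (SE 0.29, limma adjusted p = 0.242), the largest in size among the 18 member probe sets in that comparison. Narrow-range arrays were 7 of the 9 in DW16 and 3 of the 8 in EW16. On these the DW16 and EW16 means were 6.91 and 7.21, and on the remaining arrays 7.12 and 8.27.

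At 8 weeks Slc40a1 1417061_at read 8.18, 7.55, 7.37, 7.15 and 7.43 in DW8 mice and 7.47 to 8.64, with a median of 8.25, in DC8 mice. DW8 mice 1 and 2 lay within the DC8 range and the other 3 below it. The difference was -0.60 (SE 0.21, limma adjusted p = 0.114), and the diet difference at 16 weeks minus that at 8 weeks was -0.46 (SE 0.28, limma adjusted p = 0.276). EW8 mice ran from 7.38 over a median of 7.69 to 8.73. The weaker probe set 1448566_at ran from 4.60 to 5.90 over all mice, followed 1417061_at with a rho of 0.70 over 45 mice, and differed by -0.29 (SE 0.13) in D and -0.24 (SE 0.15) in E mice at 16 weeks. Adipocyte, macrophage, endothelial, lymphocyte and stromal markers, whose summed levels are given above, all reached lower values in DW16 than in DC16 mice. The mesothelial sum did so too, with a lowest value of 9.11 in DW16 and 9.56 in DC16 mice. That of the 4 measured neutrophil markers ran higher, from 7.62 to 9.27 in DW16 and from 7.36 to 8.40 in DC16 mice. The part of these cells in the Slc40a1 values was not tested.

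**Figure D2:**
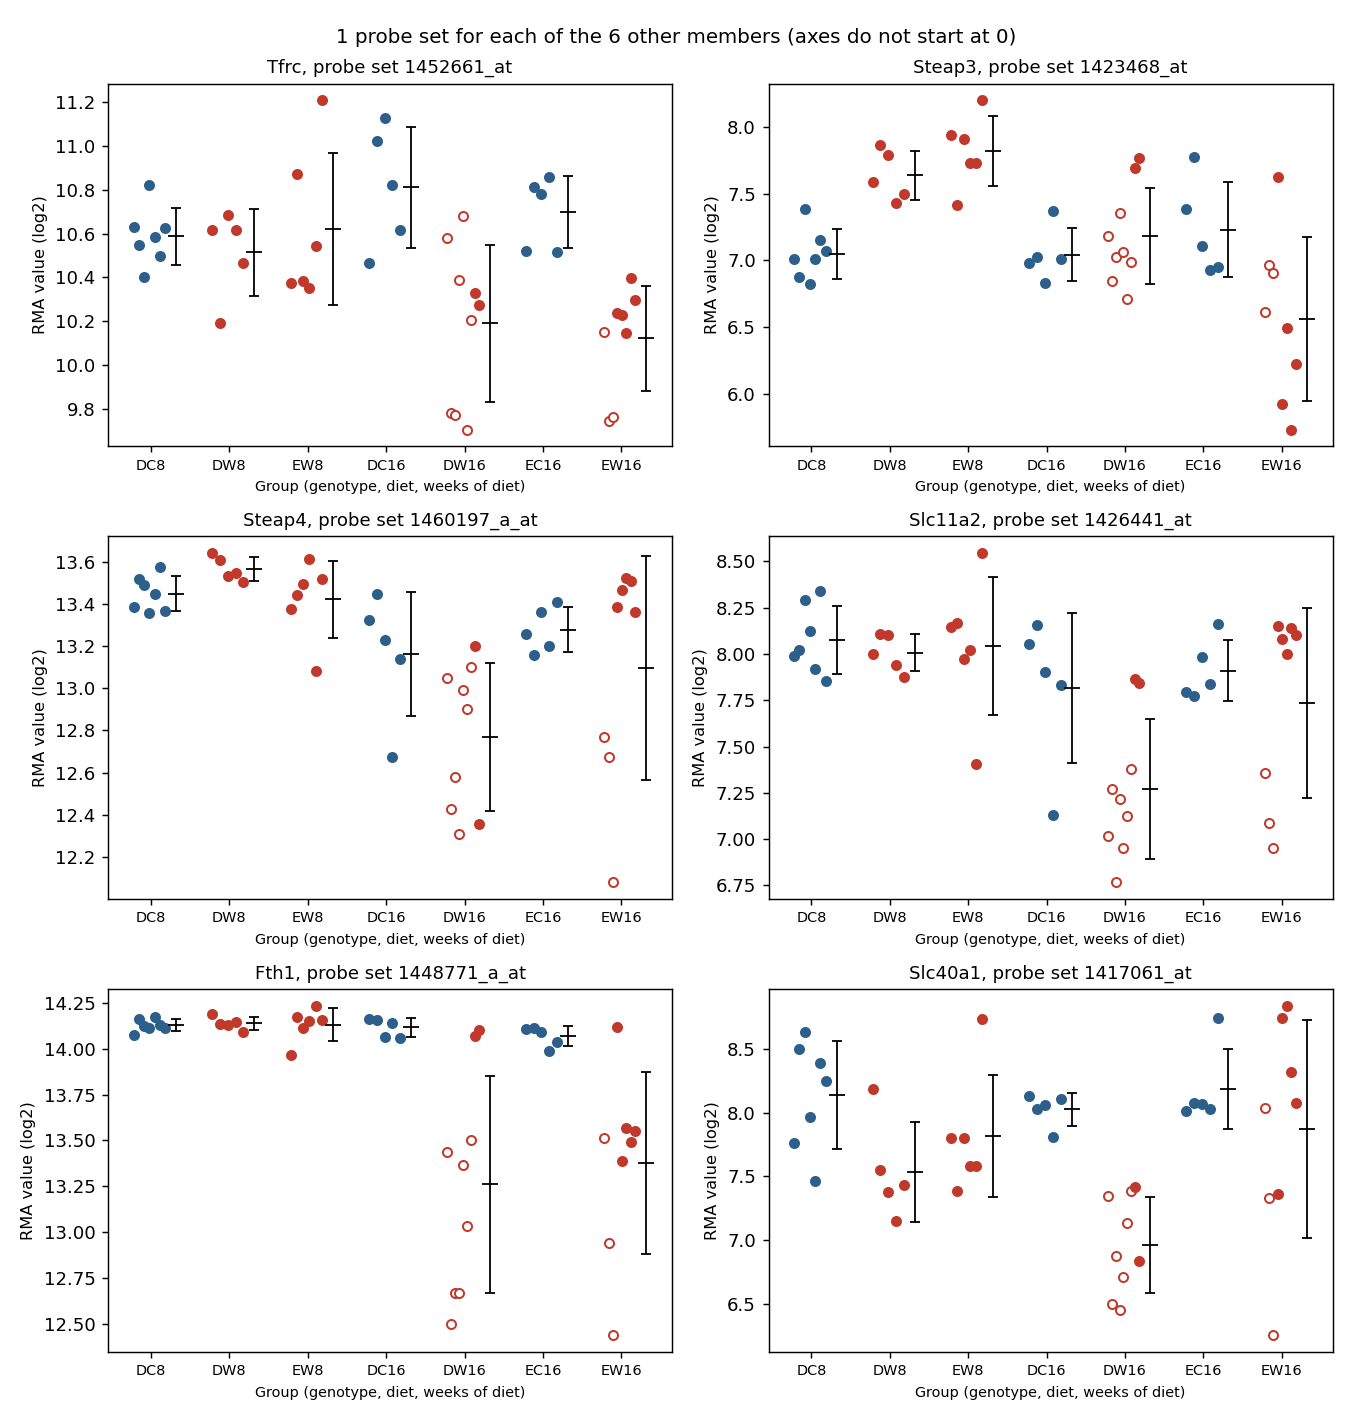
RMA values (log2, vertical axes) of 1 probe set for each of the other 6 members in each of the 45 mice by group (horizontal axes), with chow in blue, Western diet in red, narrow-range arrays as open circles, and the mean ± SD beside each group. The 5 DW8 mice sit above the 7 DC8 mice for Steap3, all DW16 mice sit below the DC16 mice for Slc40a1, and the Fth1 values leave the range of 13.97 to 14.23 only in DW16 and EW16 mice.

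Set side by side, the members were not called in any comparison of genotypes or on chow over time. For DW8 against EW8 limma called 0 of 18 member probe sets and 0% of all, with 3 of 18 members (both Tfr2 probe sets and Fth1 1427021_s_at) and 4.13% of all at an unadjusted p under 0.05. For DW16 against EW16 limma called 0 of 18 and 0% of all, with 5 of 18 and 14.6% under 0.05. For DC16 against EC16 it called 0 of 18 and 0.00222% of all, with 2 of 18 (both Tfr2) and 6.27% under 0.05. For DC16 against DC8 it called 0 of 18 and 0% of all, with 2 of 18 (both Steap4) and 8.74% under 0.05. SAM, in either version, called 0 members in these 4 comparisons. Groups that did not overlap were found for 0 of 18 members in DW8 against EW8 (0.371% of all probe sets), in DW16 against EW16 (0.0133%) and in DC16 against DC8 (0.671%).

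The difference of the 16-week diet effect between genotypes was called by limma for 0 of 18 members and 0% of all, with 1 of 18 (Steap3 1423468_at) and 6.31% at an unadjusted p under 0.05. The difference of the diet effect between 16 and 8 weeks in D mice was called for 0 of 18 members and 0.00444% of all, with 10 of 18 and 27.7% under 0.05. Both differences of differences hold the DW16 minus DC16 difference that the genes were selected on, and nothing is read from these counts. SAM was not run on them.

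Western and chow groups are shared between comparisons, so that the columns of differences are not independent: DW16 stands in 3 of them and EW16 in 3. The median difference of the 18 member probe sets was 0.07 for DW8 against DC8 (-0.02 over all probe sets), -0.26 for DW16 against DC16 (0.04 over all), -0.22 for EW16 against EC16 (0.06 over all), -0.37 for DW16 against DW8 (0.06 over all) and -0.32 for EW16 against EW8 (0.06 over all). After quantile normalization the medians of the members were -0.14, -0.13, -0.28 and -0.10 in the last 4, and the sign of 4 members changed in D mice and of 2 in E mice at 16 weeks.

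**Figure D3:**
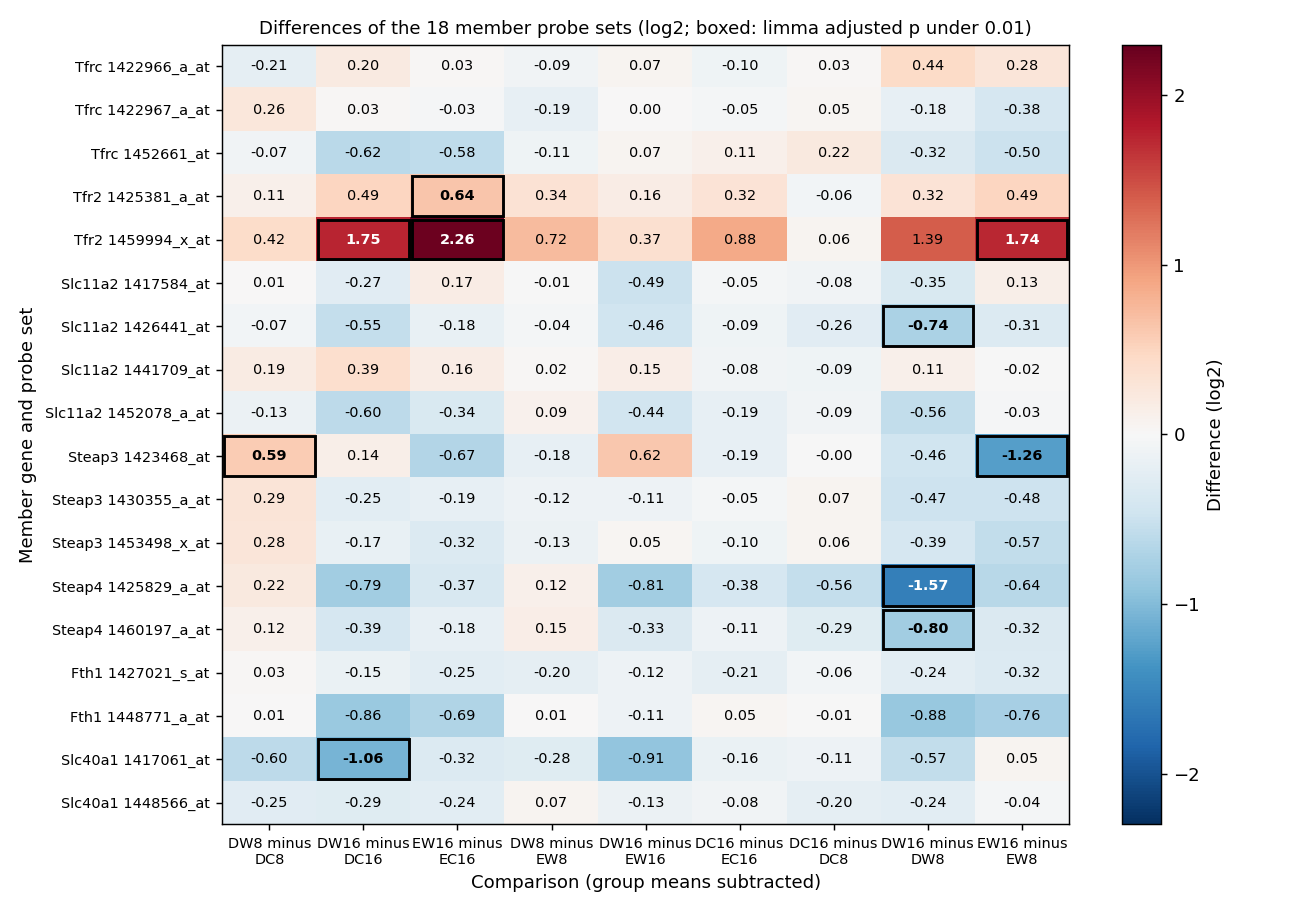
Differences of group means (log2, colour scale and printed values) for the 18 member probe sets (vertical axis) in 9 comparisons (horizontal axis), with boxes around limma adjusted p-values under 0.01. The Tfr2 row of 1459994_x_at runs from 0.06 to 2.26, and the 3 comparisons of genotypes and that of the chow groups over time hold no box. In the DW16 minus DC16 column, on which the genes were selected, the boxes are a description and not a test.

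**Figure D4:**
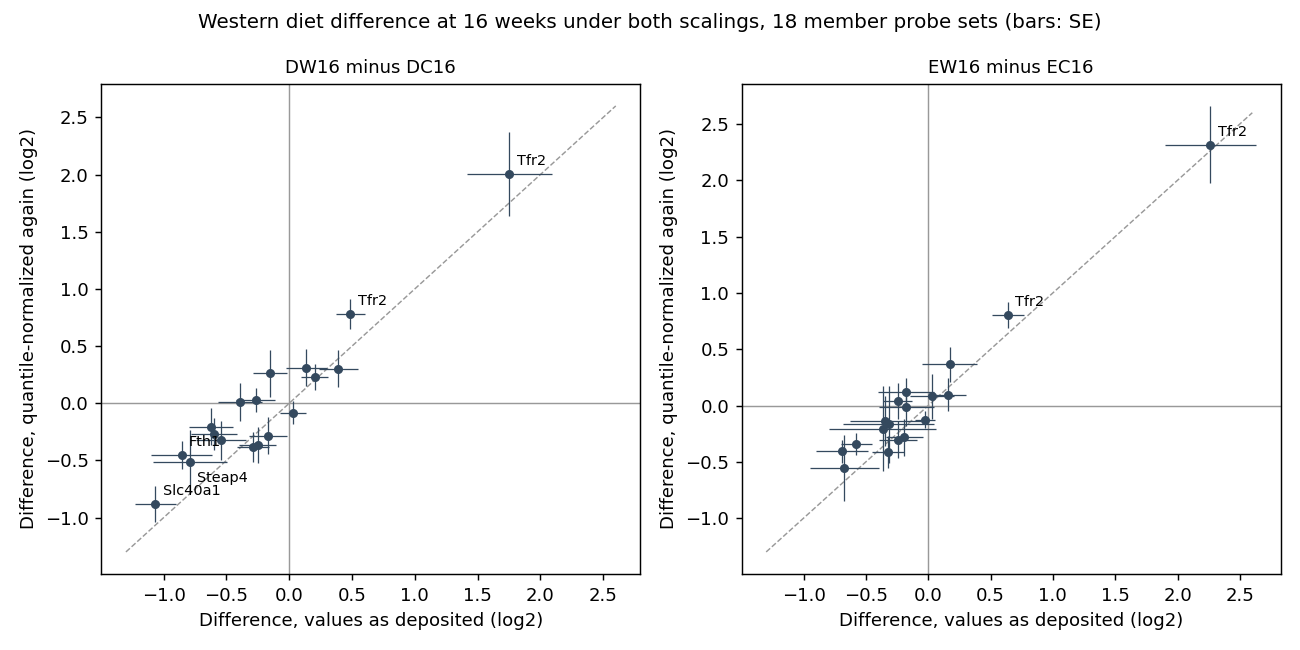
Western minus chow differences at 16 weeks (log2) of the 18 member probe sets with values as deposited (horizontal axes) and after a further quantile normalization (vertical axes), for D mice (left) and E mice (right). Bars are the SE and the dashed line marks equal values. The Tfr2 points stay highest under both scalings, with 1.75 and 2.00 in D mice and 2.26 and 2.32 in E mice on 1459994_x_at.

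Likeness to each member's strongest probe set was ranked over the 45 mice by Spearman rho, as a description, since the mice share groups and narrow-range arrays. Nearest to Tfr2 was Lipf, a gastric lipase (0.83), followed by Pigq (0.75) and Lnpk (0.71). Without the 10 narrow-range arrays the values were 0.80 for Lipf, 0.81 for Pigq and 0.63 for Lnpk. Nearest to Steap3 were Zfp516 (0.82), Zbtb7a (0.81) and Jade1 (0.81), and nearest to Steap4 were Cobll1 (0.91), Usp38 (0.90) and Tnfaip3 (0.90), an inhibitor of NF-kappa-B signalling. Slc40a1 was nearest to Vegfc (0.84), a growth factor of lymphatic vessels, Trib2 (0.83) and Tpst1 (0.82). Fth1 was nearest to Btf3 (0.92), Tm9sf2 (0.89) and Serinc3 (0.88), Slc11a2 to Nup62 (0.89), Med26 (0.89) and Stau1 (0.89), and Tfrc to Larp1b (0.78), Uchl5 (0.78) and Abhd10 (0.76). Without the narrow-range arrays the values for the members other than Tfr2 ran from 0.70 (Tpst1) to 0.86 (Btf3).

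Of 75 other genes of iron handling that were listed, 67 were measured, by 131 probe sets. In E mice at 16 weeks of Western diet 7 of the 67 genes were called, 7 lower and 0 higher, beside 5.6% of all genes called in either direction. Of those named by rule, Hmox1, which breaks down haem and releases its iron, fell by 2.05 (SE 0.19, limma adjusted p = 0.00053). EC16 mice had 11.25, 11.65, 11.35, 10.83 and 11.91, and the EW16 mice ran from 8.81 over a median of 9.44 to 9.75. No EW16 mouse came near the EC16 range, and the fall of Hmox1 was called without the narrow-range arrays (-2.02) and after quantile normalization (-1.80).

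Slc48a1, which carries haem across endosomal membranes, fell by 1.32 (SE 0.24, limma adjusted p = 0.00543) in E mice at 16 weeks, and Urod, an enzyme of haem synthesis, fell by 1.36. Of the genes of mitochondrial iron, Cisd1 fell by 1.11, Iscu, the scaffold of iron-sulfur clusters, by 1.15, and Bola3 by 0.67, while another Bola3 probe set read 0.07. Without the 3 narrow-range EW16 arrays the fall of Cisd1 was -1.05 (limma adjusted p = 0.0103), not called, and after quantile normalization neither that of Cisd1 (-0.87) nor that of Iscu (-0.89) was called. In D mice at 16 weeks 6 of the 67 genes were called, 1 higher and 5 lower, beside 6.71% of all genes. Those lower were Hmox1 (-1.89), Slc48a1 (-1.47), Aco1 (-1.27), an iron regulatory protein, Mcoln1 (-0.92), an endolysosomal channel, and Cisd2 (-0.79, with 0.19 and 0.25 on its other probe sets). Cp, the copper ferroxidase ceruloplasmin, was higher by 0.84, with -1.33 to 0.23 on its other 7 probe sets. None of the 6 was called without the narrow-range arrays, where 2 DW16 mice remained. The differences were then -1.23 for Hmox1, -0.33 for Slc48a1, -0.35 for Aco1, -0.36 for Mcoln1, -0.23 for Cisd2 and 0.92 for Cp. The median difference of the 67 genes was -0.48 in D and -0.37 in E mice, against -0.01 and 0.01 over all genes. After quantile normalization it was -0.15 and -0.17, against 0.02 and 0.02 over all genes. All genes were not matched to the 67 by level.

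At 8 weeks in D mice 1 of the 67 genes was called, beside 1.97% of all genes: Hif1a, the transcription factor of low oxygen, rose by 2.35 (SE 0.31, limma adjusted p = 0.00194), with 0.19 to 0.94 on its other 3 probe sets. Hmox1 differed by -1.28 (SE 0.27, limma adjusted p = 0.0174) there. From DW8 to DW16 8 genes were called, 1 higher and 7 lower, beside 10.1%: among them Heph, a ferroxidase, fell by 1.41, Lrp1 by 1.67, Flvcr2 by 0.74, Hif1a by 1.69 and Ncoa4, the receptor for the breakdown of ferritin, by 1.01, while Isca1 rose by 0.53. The other probe sets of Lrp1 (0.28) and Isca1 (-0.88) pointed the other way. Without the narrow-range arrays none of these 6 was called on the 2 remaining DW16 mice, with limma adjusted p-values of 0.237 to 0.362. The differences were then -0.60 for Heph, -0.31 for Lrp1, -0.87 for Flvcr2, -1.93 for Hif1a, -0.47 for Ncoa4 and 0.42 for Isca1. From EW8 to EW16 4 genes were called lower, beside 3.38%: Hif1a (-2.33), Slc48a1 (-1.20), Iscu (-1.13) and Urod (-1.02). Without the narrow-range arrays none of these 4 was called, with differences of -2.56, -0.92, -1.20 and -1.06 and limma adjusted p-values of 0.0144, 0.019, 0.0181 and 0.0222 in the same order, and after quantile normalization Slc48a1 (-0.95) alone was called. In the other 4 comparisons limma called 0 of the 67 genes and 0% of all genes. At an unadjusted p under 0.05 on any probe set were 5 of the 67 genes (7.46%, beside 7.52% of all genes) for DW8 against EW8, 16 (23.9%, beside 24.6%) for DW16 against EW16, 13 (19.4%, beside 11.2%) for DC16 against EC16 and 13 (19.4%, beside 14.6%) for DC16 against DC8. The genes with the smallest p-values there, none called, were Fech (0.26) and Neo1 (0.26) for DW8 against EW8, Abcb10 (0.68) and Epas1 (0.41) for DW16 against EW16, Hephl1 (1.47) and Flvcr1 (-0.32) for DC16 against EC16, and Cisd1 (0.47) and Lrp1 (-0.40) for DC16 against DC8.

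**Figure D5:**
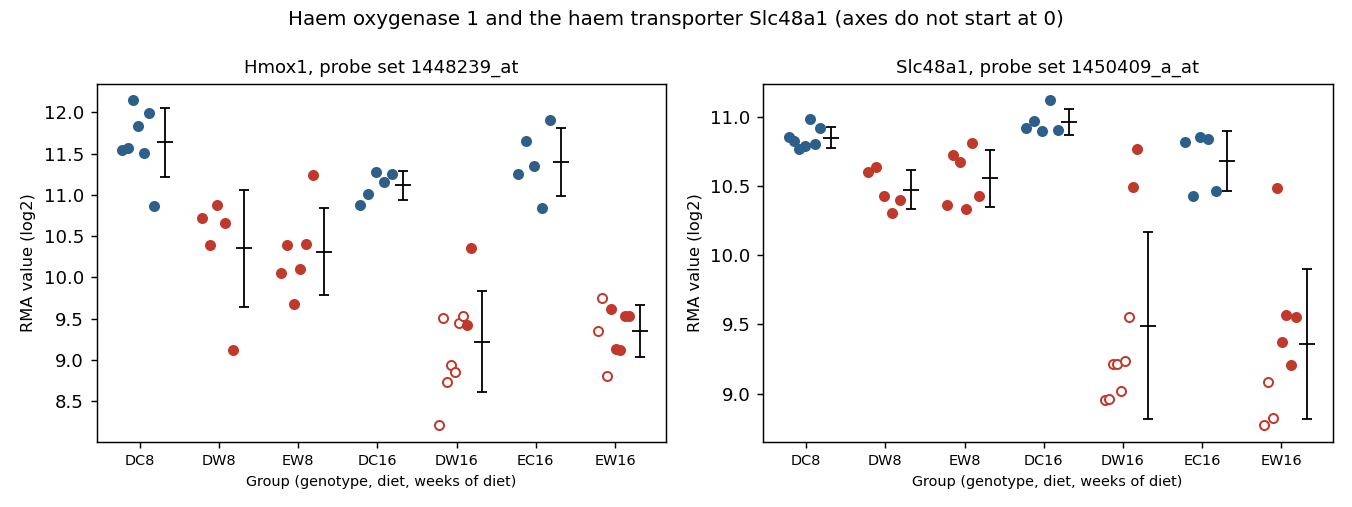
RMA values (log2, vertical axes) of Hmox1 and Slc48a1 in each of the 45 mice by group (horizontal axes), with chow in blue, Western diet in red, narrow-range arrays as open circles, and the mean ± SD beside each group. The 8 EW16 mice lie at 8.81 to 9.75 for Hmox1, below all 5 EC16 mice.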

How the data were processed

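The authors hybridised RNA of adipocytes from 45 mice to Affymetrix MG430-2.0 arrays, 1 per mouse, and deposited log2 values from RMA express, that is, background-corrected, quantile-normalized and summarised per probe set. The version of the software, and whether 1 run of it covered every array, are not given in the sources used here. All 45 columns were matched to mice and groups by their labels, and 0 were left out. RMA shrinks low signals, so that differences of weak probe sets can be understated.

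Of 45037 probe sets, 34945 had 1 gene symbol in the array annotation, 932 several and 9160 none. The members and all gene lists were chosen with earlier results of these data known. The 9 comparisons and 2 differences of differences were tested with limma 3.58.1 (lmFit, then eBayes; R 4.3.3). The study called the probe sets that LIMMA and SAM had in common. Here limma alone made the call, at a Benjamini-Hochberg adjusted p under 0.01 taken over the whole array, each fit held only the groups it compared, and calls shared by limma and SAM were one of the settings. Fits were checked on simulated data. Settings tried were another quantile normalization, centring on the median, 1 spread for all 7 groups, only probe sets above the median level, the replicate number as a block, the SD over probe sets of an array as covariate, the narrow-range arrays left out, and each mouse left out. SAM (100 permutations) was written anew, with separate cut-offs for each direction. Keeping only narrow-range arrays in the 16-week Western groups, and SAM with symmetric cut-offs, were added after seeing the data.

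Named were all members with every probe set. Of the other iron genes the called ones with the smallest adjusted p were named, up to 6 per comparison, or 2 not called where none was. For each member the 3 genes nearest by Spearman rho to its strongest probe set were named. Promoters were read from a RefSeq table (GRCm38.p6), which held 5 of the 7 members. Plots were drawn with Matplotlib 3.10.9.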

Additional observations from a re-analysis of the deposited data

Results flagged for a closer look

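In 9 of the 126 sets made of 1 member probe set in 1 group, a single mouse stood far from the rest of its group by Dixon's criterion; chance alone gives about 1 in 20. For Tfr2 1459994_x_at these were DW8 mouse 1 at 7.17 (nearest mouse 6.53) and EC16 mouse 5 at 4.34 (nearest 5.40). For Tfrc they were DC8 mouse 3 at 6.28 on 1422966_a_at (nearest 5.94) and DW16 mouse 2 at 4.37 on 1422967_a_at (nearest 4.03). DC16 mouse 4 was low for Slc11a2 1417584_at at 8.10 (nearest 8.30) and for Steap4 1425829_a_at at 7.28 (nearest 8.57). DC8 mouse 3 was high for Steap3 1430355_a_at at 4.79 (nearest 4.25). For Slc40a1 1417061_at, EC16 mouse 5 at 8.75 (nearest 8.08) and EW8 mouse 6 at 8.73 (nearest 7.80) were high.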

How the results depend on the processing

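Of the 18 member probe sets 1 was called for DW8 against DC8, 2 for DW16 against DC16, 2 for EW16 against EC16, 3 for DW16 against DW8 and 2 for EW16 against EW8, and 0 in the other 6 results, where the settings run on them, mice left out apart, also called 0. Shares of all probe sets tested follow each count in brackets. With 1 spread for all 7 groups the counts were 0 for DW8 against DC8 (0.326%), 5 for DW16 against DC16 (17.1%), 3 for EW16 against EC16 (7.29%), 5 for DW16 against DW8 (15.5%) and 6 for EW16 against EW8 (9.10%). SAM with symmetric cut-offs left 0 calls for DW8 against DC8 (0.238%). With the SD over probe sets of an array as covariate, 0 members were called for DW16 against DC16 (0.00666%), 0 for DW16 against DW8 (0.00444%) and 0 for EW16 against EW8 (0.0133%). Without the narrow-range arrays, where 2 DW16 mice remained, the counts were 0 (0%), 0 (0.00222%) and 0 (0.0200%) in the same order. With only the narrow-range arrays kept in the 16-week Western groups, 8 members were called for DW16 against DC16 (22.3%), 7 for EW16 against EC16 (20.9%), 11 for DW16 against DW8 (25.2%) and 9 for EW16 against EW8 (18.5%). After quantile normalization 3 members were called for DW16 against DC16 (3.21%) and 2 for EW16 against EC16 (2.64%). In the same setting 3 were called for DW16 against DW8 (5.50%) and 2 for EW16 against EW8 (0.924%). Of these, 2, 2, 1 and 1 in the same order were called before it too. The causes were not tested.

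The replicate block gave 0 calls for DW8 against DC8 (0.0488% of all probe sets), 5 for DW16 against DC16 (17.3%), 0 for EW16 against EC16 (0%), 8 for DW16 against DW8 (17.9%) and 0 for EW16 against EW8 (0%). Mice with the same number deviated from their group means with correlations between -0.44 and 0.53, and in 0 comparisons did every pair exceed 0.1, so the numbers were not taken to pair mice.

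With 1 mouse left out at a time the count ran from 0 (without DW8 mouse 1, among others) to 1 for DW8 against DC8, from 0 (without DC16 mouse 1, among others) to 4 (without DW16 mouse 8) for DW16 against DC16, from 0 (without EC16 mouse 1, among others) to 3 (without EW16 mouse 4) for EW16 against EC16, from 1 (without DW8 mouse 1, among others) to 5 (without DW16 mouse 8) for DW16 against DW8, from 0 (without EW8 mouse 1, among others) to 5 (without EW16 mouse 4) for EW16 against EW8, from 0 to 1 (without DW16 mouse 8) for the difference of the diet effect between 16 and 8 weeks, and was 0 throughout for the rest. Shares of all probe sets are not given for these fits, so nothing is read from their counts. Only 13 of the 18 member probe sets lie above the median level, and the others give weak signals.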
